A study of Mus musculus with 2 samples.

Results

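Kinesins are motor proteins that walk along microtubules, and their mRNA levels were compared between chondrocytes of young mice that had not been stretched and cells 24 h after a bout of cyclic tensile strain. A gene counted as a kinesin when its symbol was Kif or Kifc followed by a number and a non-control probe of the array named a RefSeq transcript of it. This gave 41 kinesin genes of 20660 named genes on the array, of which 40 code for protein and 1, Kif4-ps, is a pseudogene. Each gene is described by its brightest probe, and the choice used no difference between the arrays. The RefSeq table held 46 symbols of this form. The other 5, Kif14, Kif16bos, Kif22-ps, Kif28 and Kifc5c-ps, matched no probe and were not analysed here.

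Kinesins use the energy of ATP to pull cargo along microtubules, to slide microtubules past each other or to take tubulin off their ends. One set is made mainly by dividing cells, in which it builds the spindle, moves chromosomes and completes cytokinesis. Another set works throughout the life of a cell and carries vesicles, mitochondria and other cargo, and a further set serves the primary cilium, the antenna-like organelle with which chondrocytes sense their surroundings and respond to hedgehog ligands.

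The cells were primary chondrocytes of C57BL/6J mice at 6 days of age, grown on fibronectin in silicon stretch chambers. RNA of unstretched cells, taken before loading, was hybridised to 1 array. RNA of cells stretched for 30 min at 0.5 Hz and 10% elongation, taken 24 h after loading, was hybridised to another array on the same slide. An array of unstretched cells at 24 h was not analysed here, so the effect of stretching and that of a further day in culture cannot be told apart, and how many animals or chambers each RNA came from is not given in the sources used here. Because each time has 1 array, the spread between replicates is unknown, and the values carry no test or p-value. The error after each log2 ratio combines the scanner software's error of both spots, covers error within the arrays only and was about 0.20 for bright spots.

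A gene was called detected when its probe was well above the background of the array, as the scanner software judged it, on both arrays. A gene past 2-fold had a log2 ratio (24 h minus before loading, each array scaled to its 75th percentile) below -1 or above 1. Of 14231 genes detected on both arrays, 260 fell past 2-fold (1.83%) and 95 rose past 2-fold (0.668%), 2.49% in either direction, and the median log2 ratio was -0.01 with quartiles of -0.20 and 0.16. On the array before loading 59.1% of spots stood well above background, and on the 24 h array 57.7%. The 10 chondrocyte markers looked up, among them type II collagen (Col2a1), aggrecan (Acan) and Sox9, were all detected, and their log2 ratios lay between -0.82 and 0.56 with none past 2-fold.

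Of the 41 kinesins, 36 were detected on both arrays, 3 only before loading and 2 on neither array. Among the 36, 11 fell past 2-fold (beside 1.83% of all detected genes) and 0 rose (beside 0.668%). By the role each motor is known for, the mitotic kinesins held 10 of the 11. All 10 mitotic kinesins detected on both arrays fell, with a median log2 ratio of -1.69 and a range of -2.54 to -1.14. Among 22 detected kinesins of cargo transport and the cilium, 0 passed 2-fold (beside 2.49% of all detected genes), and their median was 0.01. In RNA from a whole culture, fewer dividing cells and less RNA in each of them cannot be told apart.

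**Figure D1:**
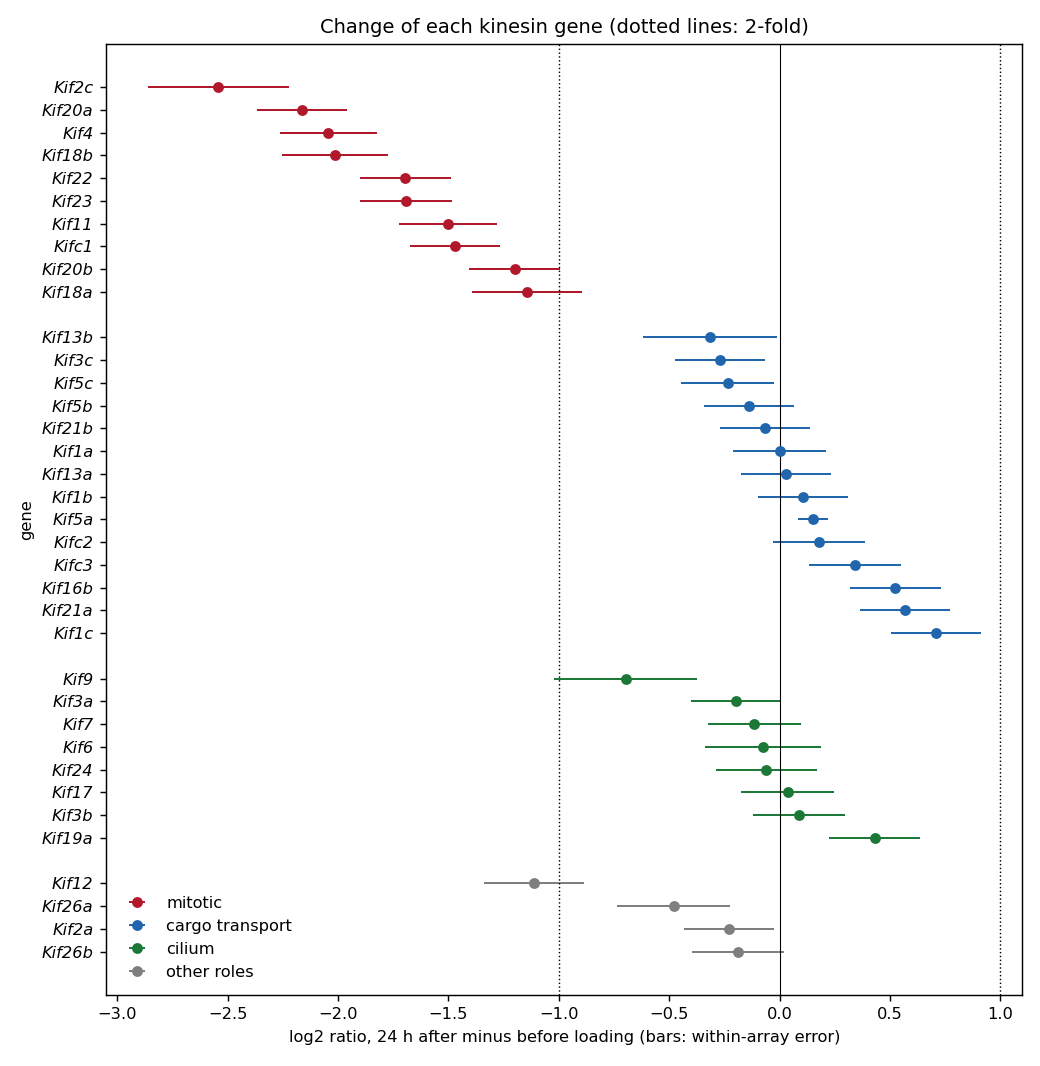
Log2 ratio (24 h minus before loading) of the 36 kinesins detected on both arrays, grouped by known role, with bars for the error within the arrays and dotted lines at 2-fold. The 10 mitotic kinesins lie between -2.54 and -1.14 and the 22 cargo and cilium kinesins between -0.70 and 0.71, so these groups, as assigned here and among genes detected on both arrays, do not overlap.

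Of the motors that act at kinetochores and on microtubule ends, Kif2c, Kif18a and Kif18b fell. Kif2c, also known as MCAK, takes tubulin off the ends of microtubules and frees wrongly attached chromosomes. Its intensity was 145 before loading and 24.9 at 24 h, a log2 ratio of -2.54 ± 0.32 or 5.83-fold lower, the value ranked 4 from the lowest of all 14231 detected genes. Its size depended on the background correction: with normexp, which shrinks the ratios of dim probes, Kif2c stood at -1.14, and Kif20a, at -1.99, was the lowest kinesin. A dimmer Kif2c probe went from 140.4 to 18.6 and was above background before loading only. Kif18b, which limits the length of astral microtubules, went from 184 to 45.5, a log2 ratio of -2.01 ± 0.24. Kif18a, which dampens the movements of chromosomes at the spindle equator, went from 101 to 45.8 and, at -1.14 ± 0.25, had the smallest decrease of the 10. Both Kif18 motors fell, but in the main values their log2 ratios differed by more than the sum of their errors within the arrays. Under normexp Kif18b stood at -1.09 and Kif18a at -0.68, less far apart than that sum, so the contrast between these genes did not hold there.

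Chromokinesins bind chromosome arms and push them towards the spindle equator. Kif4, the mouse gene for KIF4A, also stops microtubule growth in the central spindle, and its intensity went from 289 to 70.1, 4.12-fold lower. Kif22, also known as Kid, went from 2517 to 777, 3.24-fold lower. Both fell, to 24.3% and 30.9% of the level before loading.

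Cytokinesis motors gather at the central spindle and the midbody, where daughter cells part. Kif20a, which brings the chromosomal passenger complex to the central spindle, went from 2493 to 556, a log2 ratio of -2.16 ± 0.20 or 4.48-fold lower. Kif23, the motor subunit of centralspindlin, went from 453 to 140.2, a log2 ratio of -1.69 ± 0.21. Kif20b, a relative of Kif20a needed for late cytokinesis, went from 571 to 248, a log2 ratio of -1.20 ± 0.21. All 3 fell, Kif20a to 22.3% and Kif20b to 43.5% of the level before loading.

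Of the motors that push spindle poles apart or draw microtubules together, Kif11 and Kifc1 fell past 2-fold. Kif11, or Eg5, cross-links and slides antiparallel microtubules to separate the poles, and its intensity went from 196 to 69.3, a log2 ratio of -1.50 ± 0.22. Kifc1, a minus-end-directed motor that focuses spindle poles, went from 1478 to 533, a log2 ratio of -1.47 ± 0.20. Kif15, which can stand in for Kif11, went from 46.0 to 16.0 and was not well above background at 24 h. Its approximate lower bound was a 2.58-fold decrease. Kifc5b, a close copy of Kifc1, went from 62.6 to a value not well above background (16.4), with an approximate lower bound of a 3.52-fold decrease. How far probes of Kifc1 and Kifc5b take up each other's RNA was not tested, so both values are uncertain as values of 1 gene. Kif2b, a testis relative of Kif2c, was dim on both arrays (4.42 and 4.26) and not detected.

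**Figure D2:**
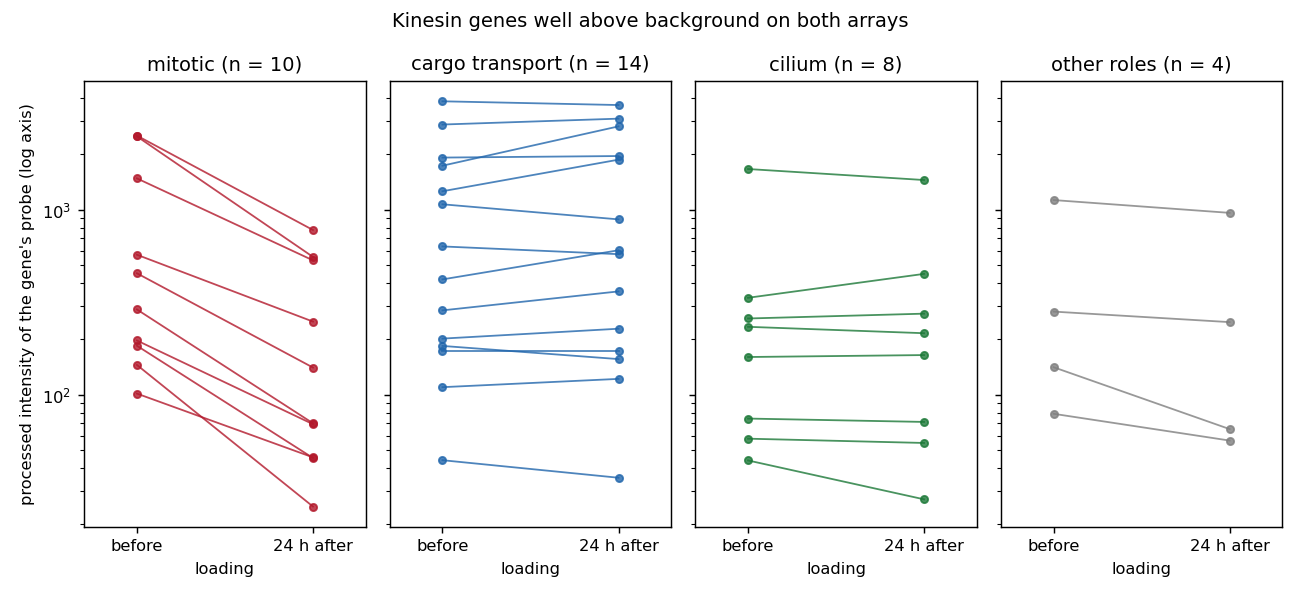
Intensity on each array (log axis) of the 36 kinesins detected on both arrays, in 1 panel for each role. A line joins the values before loading and at 24 h of 1 probe, and levels of different probes are not comparable. The lines of the mitotic kinesins drop, Kif2c from 145 to 24.9 and Kif20a from 2493 to 556, and those of most cargo and cilium kinesins are near level.

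Ranked from the lowest log2 ratio among the 14231 detected genes, the 10 mitotic kinesins held ranks 4 to 178. Kif2c, Kif20a, Kif4 and Kif18b held ranks 4, 25, 39 and 42. These ranks use the main values, and normexp moved Kif2c, Kif4 and Kif18b beyond their errors. Within 100 µm of the probe of any mitotic kinesin, no more than 1 neighbouring detected spot fell past 2-fold.

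Promoters of the mitotic kinesins are shown because most of them hold short sequence elements that the choice of members did not use. Genes expressed late in the cell cycle often carry a cell cycle homology region, TTTGAA, to which the DREAM and MuvB complexes bind, and a CCAAT box, to which NF-Y binds. RefSeq promoters of mouse assembly GRCm38.p6 (250 bases before to 50 bases after the start) were listed for 32 of the 41 kinesins. TTTGAA, on either strand, occurred in the promoters of 10 of 12 mitotic kinesins (83.3%), 2 of 16 cargo and cilium kinesins (12.5%) and 20.2% of 27025 genes. The 12 lack Kif20a and include Kif15, Kifc5b and Kif2b, which were not detected on both arrays. Kifc1 and its close copy Kifc5b each hold TTTGAA and CCAAT and are counted separately here and below. The cargo and cilium kinesins with a match were Kif1a and Kif27. Of 4 kinesins with other roles, Kif26b alone had one, at position -9, with a CCAAT as well, and its log2 ratio was -0.19. The element was also common among the partners of the mitotic motors described further on, in 10 of 15 (66.7%). Per promoter it occurred in 17.9% of all 32851 promoters of this length. CCAAT occurred in 8 of 12 mitotic kinesins (66.7%), 6 of 16 cargo and cilium kinesins (37.5%) and 41.1% of all genes. Those 6 were 5 of 8 cilium kinesins (62.5%), a share near the mitotic one, and 1 of 8 cargo kinesins (12.5%). Both elements occurred in 7 of 12 mitotic kinesins (58.3%), 1 of 16 cargo and cilium kinesins (6.25%) and 7.97% of all genes. A match describes these letters and is not a bound site, and its absence says nothing of the factor.

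In 9 of the 12 mitotic promoters TTTGAA lay within 40 bases of the start, against 10 of 15 partners (66.7%), 4.61% of all genes and 0 of 16 cargo and cilium kinesins. That window was chosen after the positions were seen, and the match of Kif1a, at -44 to -39, fell just outside it. The count for cargo and cilium kinesins therefore depends on where the edge was set. The following stretches run 5′ to 3′ along the gene, from 110 bases before the listed start to base 30 counted from it. TTTGAA or its complement TTCAAA and CCAAT or its complement ATTGG are in capitals.
Kif2c (chr4:117178743-117178882, minus strand): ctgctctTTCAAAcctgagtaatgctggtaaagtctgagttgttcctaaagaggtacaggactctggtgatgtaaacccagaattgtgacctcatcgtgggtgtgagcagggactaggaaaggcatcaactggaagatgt
Kif4 (chrX:100625955-100626094, plus strand): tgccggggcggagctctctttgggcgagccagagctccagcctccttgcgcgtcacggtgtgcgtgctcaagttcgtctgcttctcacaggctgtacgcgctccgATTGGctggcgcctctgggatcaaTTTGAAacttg
Kif18b (chr11:102925095-102925234, minus strand): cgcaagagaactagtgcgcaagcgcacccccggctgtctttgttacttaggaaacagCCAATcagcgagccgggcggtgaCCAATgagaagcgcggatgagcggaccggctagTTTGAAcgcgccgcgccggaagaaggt
Kif22 (chr7:127042391-127042530, minus strand): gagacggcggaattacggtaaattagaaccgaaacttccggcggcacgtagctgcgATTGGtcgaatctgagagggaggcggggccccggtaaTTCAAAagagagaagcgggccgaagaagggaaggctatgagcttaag
Kif23 (chr9:61946770-61946909, minus strand): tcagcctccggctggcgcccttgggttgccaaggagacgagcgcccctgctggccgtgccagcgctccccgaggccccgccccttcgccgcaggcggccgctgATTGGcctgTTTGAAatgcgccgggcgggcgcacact
Kif11 (chr19:37376272-37376411, plus strand): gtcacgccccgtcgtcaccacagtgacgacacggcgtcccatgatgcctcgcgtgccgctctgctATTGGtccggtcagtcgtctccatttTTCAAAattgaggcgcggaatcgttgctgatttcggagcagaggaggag
Kifc1 (chr17:33890604-33890743, minus strand): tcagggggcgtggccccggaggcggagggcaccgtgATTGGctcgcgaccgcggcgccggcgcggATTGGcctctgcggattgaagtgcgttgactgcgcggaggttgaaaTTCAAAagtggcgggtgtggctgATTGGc
Kif20b (chr19:34922248-34922387, plus strand): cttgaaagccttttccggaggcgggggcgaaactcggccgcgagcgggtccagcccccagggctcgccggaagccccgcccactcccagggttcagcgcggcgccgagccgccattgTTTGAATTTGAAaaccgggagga
Kif18a (chr2:109280628-109280767, plus strand): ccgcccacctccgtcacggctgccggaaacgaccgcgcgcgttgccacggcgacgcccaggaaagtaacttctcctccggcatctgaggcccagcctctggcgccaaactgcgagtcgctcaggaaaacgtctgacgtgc
In the Kif23 stretch the capitals of both elements stand 4 bases apart at the start, and Kif20b holds TTTGAA 2 times in direct succession. Kif2c has its match at position -103 and no CCAAT. The start that RefSeq lists lies inside the gene for Kif2c, Kif18b, Kif20b, Kif22 and Kif23, and for Kif3a and Kif1c, shown further on. For these genes the listed start is not the first base of the gene. Kif18a holds neither element. Kif20a had no entry and is not shown.

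**Figure D3:**
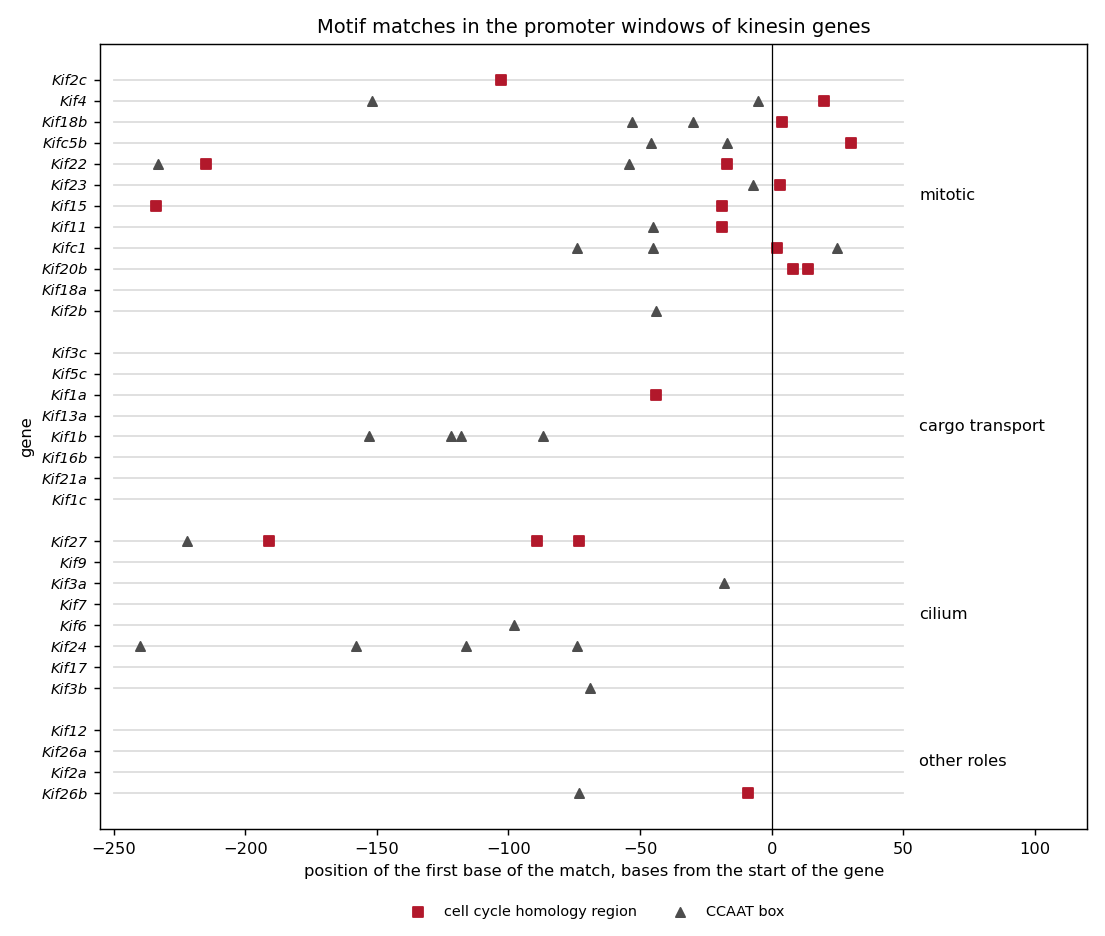
Matches of TTTGAA and CCAAT, on either strand, along the RefSeq promoters of the kinesins (squares for TTTGAA, the cell cycle homology region, and triangles for CCAAT), as distance in bases from the listed start of the gene. TTTGAA matches of the mitotic kinesins gather near the start (9 of 12 promoters within 40 bases), and none of the 16 cargo and cilium kinesins has one there. The match of Kif1a, at -44 to -39, lies just outside this window, which was chosen after the positions were seen.

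For contrast, the same stretch is shown for a cilium motor and a cargo motor. Neither holds TTTGAA.
Kif3a (chr11:53567259-53567398, plus strand): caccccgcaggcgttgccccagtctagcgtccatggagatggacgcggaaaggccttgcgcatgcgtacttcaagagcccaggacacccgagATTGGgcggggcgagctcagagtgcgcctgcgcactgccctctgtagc
Kif1c (chr11:70700438-70700577, plus strand): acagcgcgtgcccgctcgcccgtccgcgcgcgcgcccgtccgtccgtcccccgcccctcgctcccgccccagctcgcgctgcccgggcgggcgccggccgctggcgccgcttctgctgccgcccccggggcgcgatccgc

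Of the 14 cargo kinesins, all were detected on both arrays and 0 passed 2-fold, near the 2.49% of all detected genes. Their median log2 ratio was 0.07, with 9 above 0, Kif1a at 0.00 among them, and 5 below. Kif21b, Kifc2 and Kifc3 stood at -0.07 ± 0.20, 0.18 ± 0.21 and 0.34 ± 0.21. Kif5b, the heavy chain of conventional kinesin that most cells use, went from 633 to 575, a log2 ratio of -0.14 ± 0.20. Its relatives Kif5c and Kif5a, best known from neurons, had log2 ratios of -0.24 ± 0.21 and 0.15 ± 0.07. The Kif5a probe was printed on 10 spots, whose log2 ratios ran from -0.18 to 0.43 with an SD of 0.17 across spots of the same arrays.

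Kinesin-3 motors carry vesicles over long distances. Kif1c, which moves integrin-containing vesicles and secretory cargo, had the highest log2 ratio of all kinesins, going from 1730 to 2823, 0.71 ± 0.20 or 1.63-fold. Its other probes gave 0.93 and 0.34, so all 3 lay above 0 and none passed 2-fold. Kif16b, an endosome motor, went from 420.2 to 604 (0.52 ± 0.20), and Kif21a, which restrains microtubule growth at the cell edge, from 1259 to 1865 (0.57 ± 0.20). The log2 ratios of Kif1c, Kif16b and Kif21a were more than 2 times their errors within the arrays. Kif1b, Kif13a and Kif13b had log2 ratios of 0.11, 0.03 and -0.31, each within or close to its error. At the low end beside Kif13b stood Kif3c, a partner of Kif3a in some cells, which went from 1070.3 to 887 (-0.27 ± 0.20).

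Of the 9 cilium kinesins, 8 were detected on both arrays and 0 passed 2-fold, near the 2.49% of all detected genes. Their median log2 ratio was -0.07, which turned to 0.03 with scaling to the median and to 0.01 with quantile normalisation. Kif3a and Kif3b, the motor subunits of kinesin-II that carry intraflagellar transport trains towards the tip of the cilium, went from 1660 to 1448 (-0.20 ± 0.20) and from 258 to 274 (0.09 ± 0.21). A dimmer probe of Kif3a gave 0.35 and one of Kif3b 0.99, so the probes of these genes did not settle a direction. Kif7, the cilium tip kinesin of the hedgehog pathway, went from 233 to 215 (-0.11 ± 0.21), and Kif17, a second motor of the cilium, from 160 to 164 (0.04 ± 0.21). Kif27, a relative of Kif7, went from 24.5 to a value not well above background (9.96), with an approximate lower bound of a 1.38-fold decrease. Kif9 of motile cilia had the lowest log2 ratio of the detected cilium kinesins, -0.70 ± 0.32, with values of -0.82, -0.08 and 0.11 from its other probes. Kif19a, which shortens motile cilia, had the highest (0.43 ± 0.21). Kif24 and Kif6 stood at -0.06 ± 0.23 and -0.08 ± 0.26.

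Of 4 kinesins with other roles, all had log2 ratios below 0 and 1 fell past 2-fold (beside 1.83% of all detected genes). Kif12, known from epithelia of kidney and liver, went from 141 to 65.2, a log2 ratio of -1.11 ± 0.23 or 2.16-fold lower, and is the only kinesin outside the mitotic set that passed 2-fold among the 36 detected on both arrays. Like Kif18a and Kif20b, it lay less than its error within the arrays beyond the 2-fold line. Kif2a, a relative of Kif2c that takes apart microtubules in spindles and in axons, went from 1128 to 962 (-0.23 ± 0.20), and both of its other probes gave 0.23. Kif26a and Kif26b, whose motor domains do not turn over ATP, had log2 ratios of -0.48 ± 0.25 and -0.19 ± 0.21. Of the relatives Kif2a, Kif2b and Kif2c, which share the catalytic centre in the middle of the protein, Kif2c alone passed 2-fold, and Kif2b was not detected.

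Taking the sets side by side, the highest mitotic value was Kif18a at -1.14 and the lowest cargo or cilium value was Kif9 at -0.70, a gap of 0.45. The medians differed by -1.71 (mitotic minus cargo and cilium). The gap rests on the roles assigned and on detection on both arrays: Kif2a (-0.23), which also acts in spindles, was placed among the other roles, and Kif27, at -1.30 ± 0.77 with a 24 h signal not well above background, was left out. With either of them in, the sets would overlap. Among 7 kinesins with more than 1 detected probe, the range between probes had a median of 0.55 and reached 0.93 in Kif9, so probe choice alone moved single values by more than the gap between the sets. None of the 10 detected mitotic kinesins had a second probe detected on both arrays.

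**Figure D4:**
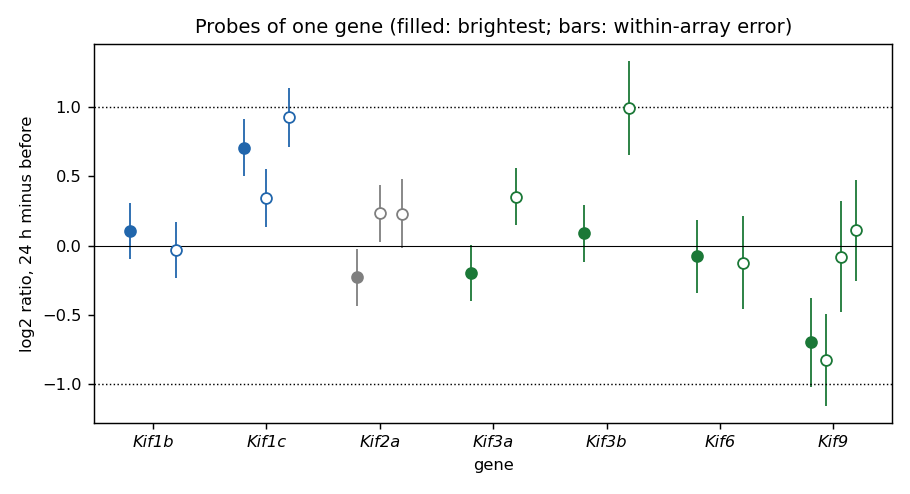
Log2 ratio (24 h minus before loading) of every detected probe of the 7 kinesins with more than 1 probe detected on both arrays, with the brightest probe of each gene filled and dotted lines at 2-fold. Probes of Kif9 and Kif3b spread by 0.93 and 0.91 and those of Kif6 by 0.05, and none passes 2-fold.

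Most partners of the mitotic motors fell. Of 18 spindle and cytokinesis partners, 17 were detected and 16 fell past 2-fold (beside 1.83% of all detected genes), with a median log2 ratio of -1.88. Racgap1, which forms centralspindlin with Kif23, went from 2271 to 650, 3.49-fold lower, and Prc1, the microtubule bundler to which Kif4 binds, from 4659 to 1319, 3.53-fold lower. Tpx2, which loads Kif11 and Kif15 onto the spindle, went from 2227 to 458, 4.86-fold lower. The chromosomal passenger complex, which Kif20a moves, held Aurkb (-1.86 ± 0.35), Birc5 (-2.13 ± 0.20), Cdca8 (-2.09 ± 0.20) and Incenp (-1.04 ± 0.20), and all 4 fell. Cenpe, a kinetochore kinesin whose symbol lies outside the Kif pattern, went from 3026 to 623, 4.85-fold lower. Numa1, which gathers microtubules at spindle poles and sits in the nucleus of non-dividing cells, was the exception among the detected partners, with a log2 ratio of -0.02 ± 0.20.

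Among partners of the transport motors, 0 of 13 light chains and adaptors, 0 of 21 intraflagellar transport genes and 0 of 20 dynein and dynactin genes passed 2-fold, shares near the 2.49% of all detected genes. The 13 kinesin light chains and adaptors had a median log2 ratio of 0.12 (-0.11 to 0.70). Light chains, which tie Kif5 motors to cargo, had log2 ratios of 0.23 (Klc1), 0.28 (Klc2), 0.42 (Klc3) and 0.12 (Klc4), each ± 0.20. Kifap3, the subunit of kinesin-II that binds cargo, stood at -0.04. The 21 intraflagellar transport genes had a median of -0.04 (-0.57 to 0.39), and the 20 genes of cytoplasmic dynein and dynactin, which carry cargo the opposite way along microtubules, a median of 0.01 (-0.43 to 0.19).

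**Figure D5:**
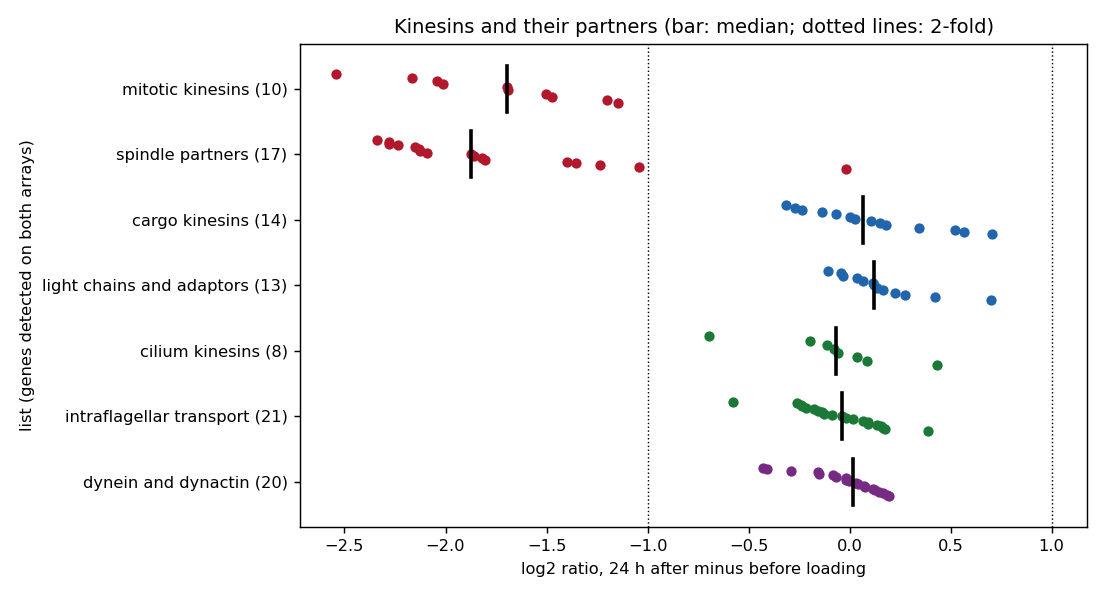
Log2 ratio (24 h minus before loading) of the detected genes of the kinesin sets and of the lists of their partners, 1 point a gene (set apart vertically for legibility), with a bar at each median and dotted lines at 2-fold. The medians are -1.69 for mitotic kinesins and -1.88 for spindle partners, and between -0.07 and 0.12 for cargo and cilium kinesins, light chains and adaptors, intraflagellar transport and dynein.

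Of 8 proliferation genes, all detected, 4 fell past 2-fold (beside 1.83% of all detected genes): Ccnb1 (-2.24 ± 0.20), Mki67 (-1.54 ± 0.20), Top2a (-1.45 ± 0.20) and Cdk1 (-1.27 ± 0.20). Mcm5 (-0.82), Pcna (-0.25) and Mcm2 (-0.12) of DNA replication and Ccnd1 (-0.04) of the G1 phase did not pass it. The part of proliferation in the kinesin values was not tested.

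Markers of other cells were looked up over whole lists. Of 4 osteoblast markers, 3 had a probe and 2 were detected. Ibsp, which codes for bone sialoprotein, fell from 259 to 61.9 (-2.06), Sp7 stood at -0.64, and Dmp1 was detected on neither array. The summed intensity of the list went from 342 to 117, most of it from Ibsp, and the part of these cells in the kinesin values was not tested. Macrophage markers (4 of 5 with a probe, all 4 detected) summed to 4177 before loading and 3978 at 24 h, most of it from Csf1r (-0.15). Lyz2 (0.46), Cd14 (0.21) and Adgre1 (0.09) lay above 0. Endothelial markers (2 of 4 detected, Cdh5 and Tek on neither array) summed to 12894 and 12520. Most of that came from Kdr (-0.05), and the other detected marker, Pecam1, stood at 0.23. Markers of skeletal muscle (4 of 5 detected, Ckm on neither) summed to 1850.1 and 1526. Their members differed in direction: Myh3 stood at 0.64, Acta1 at -0.31, Tnnt3 at -0.78 and Myog at -0.13. Erythroid markers (1 of 4 detected) summed to 78.5 and 84.7. Neuronal markers, which bear on the neuronal motors Kif1a, Kif5a and Kif5c, summed to 20491 and 18650.4, with 3 of 4 detected and Rbfox3 on neither array. Most of the neuronal sum came from Snap25 (-0.13), while Tubb3 stood at -0.43 and Syt1 at 0.36.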

How the data were processed

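RNA of mouse primary chondrocytes was hybridised to 2 SurePrint G3 Mouse Gene Expression arrays in 1 colour, 1 for each time. The authors deposited spot intensities as Agilent Feature Extraction 10.10.1.1 processed them, after background subtraction and without normalisation between arrays. Their deposited value table holds the same intensities to within 0.497%.

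Control spots and outlier flags (141 and 138 spots) were left out and spots of a probe averaged, giving 55678 probes. Each array was scaled to its 75th percentile (466.4 and 466.2), and probes were named through RefSeq accessions without versions. The dimmest spots well above background had intensities of 17.3 and 17.8. A probe above background on 1 array only gives an approximate lower bound on its fold. The bound is set against the higher of the dimmest such signal on the dim array and the probe's own value. It leaves out the probe's error, and the limit differs between spots. A Kif2c probe of 18.6 at 24 h, brighter than that dimmest signal, was not well above background. No spot was saturated. Roles and partner lists come from general knowledge. The genes named are all kinesins matched and the partners described, and the members, roles and lists were chosen with earlier results of these data known. The number of arrays limits the precision. Alternatives changed the scaling, background correction, filter, probe choice, table and treatment of disturbed areas. Python 3.11.15 (numpy 2.4.6, pandas 2.3.3) was used, also for quantile normalisation, and R 4.3.3 with limma 3.58.1 for normexp.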

Additional observations from a re-analysis of the deposited data

How the results depend on the processing

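No paired analysis was possible because each time had a single array. The 10 mitotic kinesins past 2-fold remained 10 under all 3 scaling alternatives, the mean over probes, the authors' table and without disturbed areas, with medians of -1.70 to -1.60. Normexp with an offset of 50 left 9 (Kif18a at -0.68) and took Kif2c to -1.14 and Kif12 to -0.72. Of the 36 detected kinesins, normexp moved 9 beyond their error. Among these were also Kif4 (to -1.33), Kif23 (to -1.31), Kif18b (to -1.09) and Kif11 (to -1.02). It moved the mitotic median to -1.22 and the difference between the medians to -1.25, since by construction the offset shrinks the ratios of dim probes. Asking for 2 errors beyond 2-fold left 8, without Kif18a and Kif20b. Detection on at least 1 array, or no filter, gave 12 mitotic kinesins lower and 1 cargo or cilium kinesin past 2-fold, Kif27, whose fitted value rests on a signal not well above background. Averaging probes moved 4 kinesins beyond their error, among them Kif3b to 0.54 and Kif9 to -0.37. No kinesin past 2-fold changed sign under any alternative run. Signal over background limits Kif15, Kifc5b and Kif27 to approximate bounds, and nothing here measures the spread between cultures.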

Other observations

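Other motor and microtubule gene families were looked up after the kinesin values had been seen. Myosins, the motors of actin filaments, were taken as genes with a symbol of Myo followed by a number. Myh genes, such as Myh3, were not among them. Of 23 such myosins with a probe, 21 were detected, with a median log2 ratio of 0.04. Past 2-fold, 0 fell (beside 1.83% of all detected genes) and 1 rose (beside 0.668%). The gene that rose was Myo1f, a myosin best known from immune cells, which went from 75.9 to 174 (1.20 ± 0.23). Of 17 tubulins, the building blocks of the track on which kinesins run, 16 were detected, with a median of 0.05. Past 2-fold, 0 tubulins fell (beside 1.83% of all detected genes) and 1 rose (beside 0.668%). Tubb2b rose from 8934 to 18978 (1.09 ± 0.20), and the lowest value was that of Tuba3a at -0.58. Of 10 axonemal dynein heavy chains, which beat motile cilia, 2 were detected, Dnah6 at -0.64 and Dnah8 at 0.07.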
